A study of Mus musculus with 30 samples.

Results

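The 39 genes considered here mark hepatic stellate cells or encode collagens, other proteins of the extracellular matrix and the enzymes, growth factors and receptors that remodel it. Each was taken from a list of gene symbols and measured by the probe set that carries its symbol alone, or, where there were several, by the brightest of them on average over 30 arrays. This gave 37 of the 39 genes, out of 22180 genes with such a probe set. Loxl2, a lysyl oxidase family member, was found only in probe sets shared with another gene and Fbn1, a microfibril protein, in none of those used here, so both were not analysed. Stellate cells lie between hepatocytes and the sinusoidal endothelium and store vitamin A as retinyl esters. When they are activated, for instance by platelet-derived growth factor or TGF-beta, they take on a contractile myofibroblast form and become a main source of fibrillar collagen in the fatty and fibrotic liver. The matrix is cross-linked by lysyl oxidases and degraded by matrix metalloproteinases, which tissue inhibitors hold in check.

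The study asked how undernourishment in utero (UN), against normal nutrition (NN), shapes the liver under an obesogenic diet. UN dams received a 40% caloric restriction in late pregnancy, and all offspring were male C57Bl/6NCr mice raised by NN dams. At 9 weeks 3 UN and 3 NN livers were taken before the high-fat diet (HFD), on regular chow. At 17 weeks 4 UN and 4 NN livers were taken after 8 weeks of HFD. At 22 weeks, after 13 weeks of HFD, 4 livers each came from UN-TU, UN-Veh, NN-TU and NN-Veh mice, which received tauroursodeoxycholic acid (TUDCA, a hydrophilic bile acid known as a chemical chaperone) or vehicle for the last 5 weeks. No chow-fed mice were sampled after 9 weeks, so that a difference between ages is also one of diet and cohort, and the litter of each mouse is not given in the labels.

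Values are log2 signals as deposited, so that a log2 difference is the mean of the group named first minus that of the other, and signals of different genes are not compared with each other. Array medians lay between 4.11 and 4.25, and below this range a signal is dim. Mmp13, Lox and Timp1 averaged below the lowest array median, and the other 34 members above it. The mean log2 signal of 6 hepatocyte markers lay between 11.39 and 11.79 in 29 arrays and at 9.32 in UN replicate 14 of 17 weeks. That array had a median correlation of 0.837 with the others, UN replicate 13 of 17 weeks 0.958 and the remaining arrays 0.977 to 0.985. The mean of 8 Kupffer cell and macrophage markers was 8.72 in replicate 13 and 5.70 in replicate 14, against 6.71 to 7.95 in the other groups, and the differences of named genes at 17 weeks that moved by over 1.5 times, or calls that changed, without both arrays are also given without them. Of the 5 members that mark stellate cells (Lrat, Des, Reln, Hgf and Pdgfrb) all averaged above the lowest array median. The RNA is of whole liver, so fewer cells of a type and less RNA per cell cannot be told apart.

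Of the 7 members that passed an adjusted p under 0.05 in at least 1 comparison (Lgals1, Lrat, Col1a1, Col3a1, Mmp12, Bgn and Pdgfrb), 4 had a promoter window in the RefSeq table used here. These 4 windows, of Lrat, Col3a1, Bgn and Mmp12, are shown. The 4 genes rose in UN-Veh livers of 22 weeks against UN livers of 9 weeks. Lgals1 and Col1a1 also rose in that comparison, but no window is shown for them. For Mmp12, which has 2 windows in the table, 1 is given. Each runs 5′ to 3′ on the gene's strand for 300 bases, of which 250 lie before the start and 50 after it (build GRCm38.p6), and capitals mark matches on either strand to a searched motif. The TATA box was searched as TATAAA. The GC box, bound by factors of the Sp family, was searched as GGGCGG. For the AP-1 site the letters were TGANTCA, and the motif named CCAAT was searched by its own letters. Matches of a motif were counted and marked without overlap, so one that starts inside an earlier match is left out. The GC box appears here as its reverse complement, CCGCCC.
Lrat, chr3:82903925-82904224, minus strand: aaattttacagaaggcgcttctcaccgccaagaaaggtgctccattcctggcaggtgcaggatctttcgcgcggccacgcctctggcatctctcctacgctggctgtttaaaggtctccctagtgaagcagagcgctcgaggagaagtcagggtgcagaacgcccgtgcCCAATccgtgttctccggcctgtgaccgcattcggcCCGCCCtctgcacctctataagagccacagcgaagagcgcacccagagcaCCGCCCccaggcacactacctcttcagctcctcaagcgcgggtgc
Col3a1, chr1:45311288-45311587, plus strand: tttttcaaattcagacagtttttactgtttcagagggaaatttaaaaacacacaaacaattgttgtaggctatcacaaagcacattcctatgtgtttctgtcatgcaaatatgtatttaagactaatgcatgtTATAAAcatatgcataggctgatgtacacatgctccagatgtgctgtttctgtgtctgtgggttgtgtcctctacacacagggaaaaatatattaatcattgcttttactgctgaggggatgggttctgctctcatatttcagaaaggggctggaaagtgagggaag
Bgn, chrX:73483351-73483650, plus strand: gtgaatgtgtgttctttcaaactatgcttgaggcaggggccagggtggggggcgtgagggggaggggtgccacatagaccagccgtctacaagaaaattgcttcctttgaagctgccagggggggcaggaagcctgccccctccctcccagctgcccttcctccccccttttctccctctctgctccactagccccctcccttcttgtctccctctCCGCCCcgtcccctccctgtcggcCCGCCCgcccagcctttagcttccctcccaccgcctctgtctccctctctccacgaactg
Mmp12, chr9:7344147-7344446, plus strand: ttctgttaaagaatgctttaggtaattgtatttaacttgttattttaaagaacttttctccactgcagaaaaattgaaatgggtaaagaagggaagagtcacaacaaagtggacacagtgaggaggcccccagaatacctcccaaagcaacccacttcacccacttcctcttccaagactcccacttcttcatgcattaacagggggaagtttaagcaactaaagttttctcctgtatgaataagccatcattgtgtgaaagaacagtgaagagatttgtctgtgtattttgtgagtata
The Lrat window held 1 CCAAT match and 2 GC box matches, the Col3a1 window 1 TATA box match, and the Bgn window 2 GC box matches. In the Bgn window a further CCGCCC, not counted or marked, starts inside the second match and ends in the gccc after it. The Mmp12 window held none of these letters. None of the 4 windows held an AP-1 match. Over all 32851 windows of the table, 13.6% held the TATA letters, 37.4% the CCAAT letters, 35.7% the GC box and 7.81% the AP-1 letters. Among the 28 windows of 25 measured members the counts were 4, 10, 14 and 3. A match describes letters only and is no evidence of binding.

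Lgals1, which encodes galectin-1, a lectin made by activated stellate cells and by many other cells, is described first. At 9 weeks the log2 signal of Lgals1 was 5.56, 5.70 and 5.69 in UN livers and 5.39, 5.30 and 5.61 in NN livers. At 17 weeks Lgals1 gave 7.87, 8.07, 8.02 and 6.21 in UN livers, against 6.69, 7.46, 7.72 and 7.16 in NN livers. At 22 weeks Lgals1 stood at 5.62, 7.0, 7.05 and 6.59 in UN-TU, 7.62, 7.58, 7.71 and 7.78 in UN-Veh, 6.69, 6.04, 6.43 and 6.11 in NN-TU and 6.88, 7.01, 7.03 and 7.61 in NN-Veh. All livers on HFD apart from UN-TU replicate 27 had a higher Lgals1 signal than every liver of 9 weeks. Among the groups of 22 weeks the UN-Veh livers were the tightest group and did not overlap with UN-TU livers, nor NN-TU with NN-Veh livers.

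Lrat encodes the enzyme that makes retinyl esters and is the classical stellate cell marker. At 9 weeks the log2 signal of Lrat was 7.32, 6.66 and 7.83 in UN livers and 6.87, 7.48 and 7.26 in NN livers. At 17 weeks Lrat gave 7.89, 8.0, 7.45 and 6.18 in UN livers, against 7.81, 7.80, 7.54 and 7.47 in NN livers. At 22 weeks Lrat stood at 7.85, 8.12, 8.44 and 8.09 in UN-TU, 7.80, 8.30, 8.30 and 8.40 in UN-Veh, 7.81, 7.62, 7.61 and 7.96 in NN-TU and 7.82, 7.96, 7.92 and 7.86 in NN-Veh. The lowest of all was UN replicate 14 of 17 weeks. Des, the intermediate filament protein of stellate and muscle cells, had a signal between 4.13 and 5.06 in all 30 arrays. In UN livers Des read 4.57, 4.53 and 4.80 at 9 weeks, 4.63, 4.54, 4.13 and 4.31 at 17 weeks and 4.65, 4.62, 4.69 and 4.78 in UN-Veh livers at 22 weeks. In NN livers Des read 4.62, 4.72 and 4.76 at 9 weeks, 4.65, 4.60, 4.42 and 4.67 at 17 weeks and 4.60, 4.22, 4.40 and 4.58 in NN-Veh livers at 22 weeks. UN and NN livers overlapped except that the lowest UN-Veh liver lay just above the highest NN-Veh liver. Under TUDCA the Des signal was 4.64, 4.79, 5.06 and 4.53 in UN-TU livers and 4.51, 4.56, 4.84 and 4.40 in NN-TU livers. Des had 0.23 (SE 0.12, limma adjusted p = 0.569) between UN-Veh and NN-Veh livers and -0.25 (SE 0.12, limma adjusted p = 0.324) between NN-Veh and 9-week NN livers, which did not overlap either.

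Acta2, the smooth muscle actin of activated stellate cells and of vessel walls, passed an adjusted p under 0.05 in no comparison. At 9 weeks the log2 signal of Acta2 was 6.91, 6.66 and 6.58 in UN livers and 7.10, 6.91 and 6.73 in NN livers. At 17 weeks Acta2 gave 7.0, 7.07, 6.94 and 6.68 in UN livers, against 6.81, 7.32, 7.49 and 6.92 in NN livers. At 22 weeks Acta2 stood at 7.57, 7.47, 6.94 and 7.24 in UN-TU, 7.08, 7.0, 7.30 and 7.49 in UN-Veh, 6.77, 6.57, 7.47 and 6.67 in NN-TU and 7.47, 7.25, 7.06 and 7.03 in NN-Veh. UN and NN livers overlapped at each age and treatment, and the UN-Veh livers lay above all UN livers of 9 weeks. Between groups of the same age the difference furthest from 0 was 0.43 (SE 0.17, limma adjusted p = 0.204), for UN-TU against NN-TU livers. Timp1, an inhibitor of metalloproteinases that activated stellate cells release, stayed dim, between 3.16 and 3.92. Its signal in UN livers was 3.65, 3.74 and 3.36 at 9 weeks, 3.18, 3.64, 3.92 and 3.87 at 17 weeks, and 3.36, 3.49, 3.62 and 3.30 in UN-TU and 3.30, 3.40, 3.55 and 3.38 in UN-Veh livers at 22 weeks. In NN livers it was 3.36, 3.62 and 3.46 at 9 weeks, 3.58, 3.65, 3.59 and 3.42 at 17 weeks, and 3.51, 3.33, 3.35 and 3.16 in NN-TU and 3.67, 3.67, 3.43 and 3.49 in NN-Veh livers at 22 weeks. No 2 groups compared stood clear of each other, and the difference furthest from 0 was -0.23 (SE 0.098, limma adjusted p = 0.262), for NN-TU against NN-Veh livers.

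Among the fibrillar collagens, Col1a1 encodes one chain of type I collagen, the main collagen of scar tissue. At 9 weeks the log2 signal of Col1a1 was 6.17, 6.53 and 6.30 in UN livers and 6.83, 6.44 and 6.10 in NN livers. At 17 weeks Col1a1 gave 6.52, 7.16, 7.16 and 6.54 in UN livers, against 6.16, 6.58, 6.85 and 6.38 in NN livers. At 22 weeks Col1a1 stood at 6.31, 6.68, 6.38 and 6.48 in UN-TU, 6.73, 6.99, 6.84 and 7.02 in UN-Veh, 6.37, 5.93, 6.26 and 5.95 in NN-TU and 6.46, 6.57, 6.27 and 6.79 in NN-Veh. The UN-Veh livers lay above all UN-TU livers and above 3 of the 4 NN-Veh livers. Col3a1, the chain of type III collagen, had 6.22, 6.12 and 6.30 in UN and 6.77, 6.16 and 5.87 in NN livers at 9 weeks. It had 6.46, 7.06, 6.43 and 6.05 in UN and 6.13, 6.38, 6.84 and 6.37 in NN livers at 17 weeks. The 22-week signals of Col3a1 were 6.17, 6.62, 6.19 and 6.48 in UN-TU, 6.51, 6.87, 6.96 and 6.82 in UN-Veh, 6.27, 5.74, 6.25 and 5.90 in NN-TU and 6.48, 6.53, 6.26 and 6.61 in NN-Veh livers. As with Col1a1, the highest values at 22 weeks were UN-Veh livers and the lowest NN-TU livers. Col1a2, the partner chain of type I collagen, had 5.60, 5.81 and 5.91 in UN and 5.88, 5.51 and 5.48 in NN livers at 9 weeks, and 5.51, 6.20, 6.34 and 5.47 in UN and 5.33, 5.95, 5.99 and 5.69 in NN livers at 17 weeks. Its 22-week signals were 5.82, 6.07, 5.75 and 5.77 in UN-TU, 5.82, 6.19, 6.32 and 6.03 in UN-Veh, 5.76, 5.22, 5.67 and 5.39 in NN-TU and 5.55, 6.11, 5.54 and 5.88 in NN-Veh livers, with overlap between every pair of groups compared. The difference of Col1a2 furthest from 0 was 0.34 (SE 0.14, limma adjusted p = 0.221), for UN-TU against NN-TU livers.

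**Figure D1:**
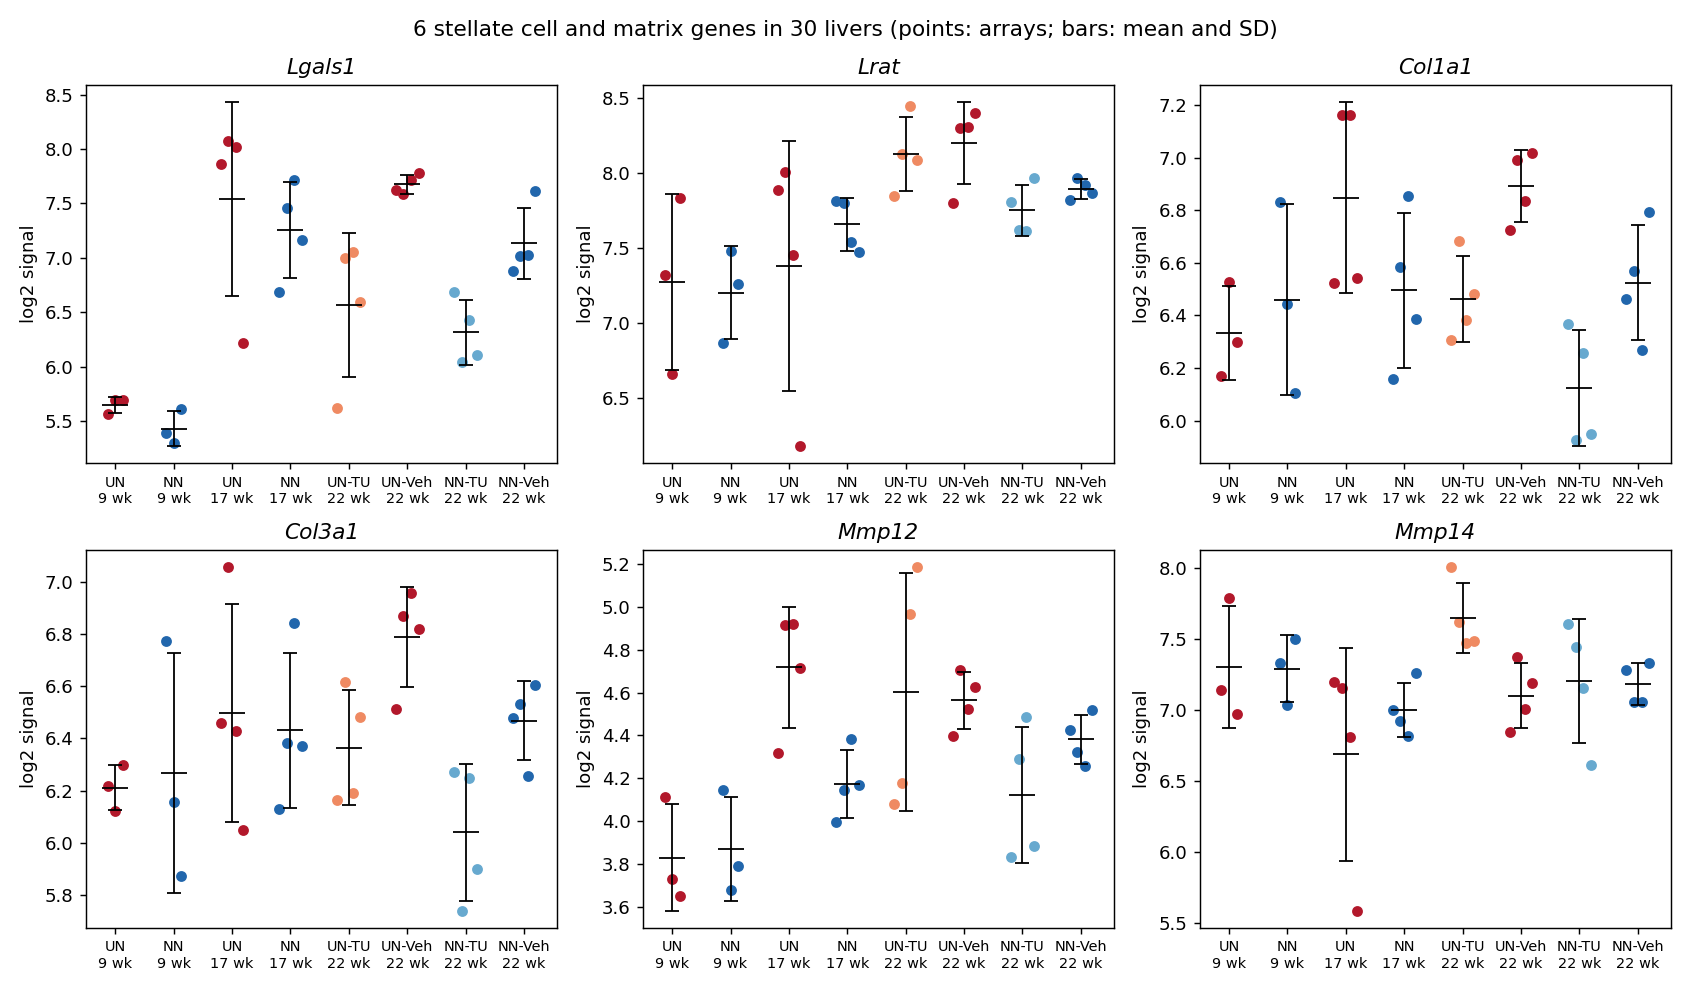
Log2 signal (vertical axis) of Lgals1, Lrat, Col1a1, Col3a1, Mmp12 and Mmp14 in the 8 groups (horizontal axis, by age in weeks), with 1 point per liver and bars for the mean and SD. The Lgals1 panel shows all 6 livers of 9 weeks at or below 5.70 and the 4 UN-Veh livers between 7.58 and 7.78.

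Between 9 weeks on chow and 22 weeks on HFD with vehicle, most members had positive differences in UN livers. The largest were those of Lgals1, Lrat, Mmp12, Col3a1 and Col1a1. Of the 5 stellate cell markers, Lrat and Pdgfrb had higher means in UN-Veh livers (8.20 against 7.27 and 6.30 against 5.99). Des, Reln and Hgf had means close to those of 9-week UN livers (4.69 against 4.63, 7.35 against 7.37 and 7.03 against 7.01). Of the 37 members, 6 rose in UN-Veh livers at an adjusted p under 0.05 and 0 fell (background 4.7% of all 25341 probe sets tested were higher and 2.07% lower). Lgals1 rose by 2.03 (SE 0.23, limma adjusted p = 6.32e-06) and Lrat by 0.93 (SE 0.20, limma adjusted p = 0.0043). Col3a1 rose by 0.58 (SE 0.17, limma adjusted p = 0.0384) and Col1a1 by 0.56 (SE 0.15, limma adjusted p = 0.0253), both without overlap between UN-Veh and 9-week UN livers. Mmp12, the macrophage metalloelastase, gave 4.40, 4.70, 4.52 and 4.63 in UN-Veh livers and 4.11, 3.73 and 3.65 in UN livers of 9 weeks, a rise of 0.73 (SE 0.21, limma adjusted p = 0.0324). The 9-week mean of Mmp12, 3.83, lay below the lowest array median and was dim. Bgn, the proteoglycan biglycan, gave 9.81, 9.96, 9.85 and 10.08 in UN-Veh livers and 9.50, 9.27 and 9.39 in UN livers of 9 weeks, a rise of 0.54 (SE 0.15, limma adjusted p = 0.0272). The UN-Veh livers were above all 9-week UN livers for Mmp12 and Bgn, whereas 1 UN-Veh and 1 9-week liver crossed for Lrat. Biglycan has another probe set, and with the mean of both its difference was 0.24 (limma adjusted p = 0.257).

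At an unadjusted p under 0.05, 17 members were higher in UN-Veh livers and 0 lower, against a background of 12.1% and 6.85%. The median difference of the members was 0.24, against 0.019 over all probe sets, and 34 of the 37 were positive. By role, the 5 fibrillar collagens had a median of 0.32, the 7 network, beaded-filament and fibril-associated collagens 0.24 and the 8 stellate cell and cytoskeleton genes 0.39. The medians were 0.18 for the 4 growth factor genes, 0.23 for the 6 proteases and inhibitors, 0.19 for the 2 cross-linking enzymes and 0.21 for the 5 glycoproteins and proteoglycans. Vim, the mesenchymal filament protein vimentin, had a difference of 0.51 (SE 0.16, limma adjusted p = 0.0655) and Acta2 one of 0.50 (SE 0.18, limma adjusted p = 0.102). Tgfbr2, the type II receptor of TGF-beta, had 0.49 (SE 0.15, limma adjusted p = 0.0548), and the signals were 6.44, 6.59, 6.57 and 6.80 in UN-Veh and 6.12, 5.74 and 6.48 in 9-week UN livers. Vim gave 7.76, 7.94, 7.92 and 8.29 in UN-Veh livers and 7.51, 7.37 and 7.52 in 9-week UN livers, without overlap. Like Bgn, Vim has another probe set, and its difference lay between 0.25 and 0.51 under settings other than leaving out 1 array. The calls depended on single livers: 2 members were called without UN replicate 5 of 9 weeks (Lgals1 and Col1a1), 3 without UN replicate 6, and 2 without UN-Veh replicate 24 or 26.

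In NN livers the same ages gave 2 members higher and 0 lower at an adjusted p under 0.05 (background 1.96% higher and 1.47% lower). Lgals1 rose by 1.70 (SE 0.23, limma adjusted p = 0.000128) in NN-Veh livers. Pdgfrb, the receptor through which PDGF drives stellate cell growth, gave 6.49, 6.47, 6.33 and 6.44 in NN-Veh and 6.12, 6.04 and 5.72 in 9-week NN livers, without overlap, and rose by 0.47 (SE 0.13, limma adjusted p = 0.0414). Its adjusted p was 0.201 without NN replicate 3 of 9 weeks, and the call was also lost without NN replicate 2 or any 1 of the 4 NN-Veh livers. Lrat had 0.69 (SE 0.20, limma adjusted p = 0.0515), also without overlap, and Mmp12 had 0.51 (SE 0.21, limma adjusted p = 0.208), with 4.42, 4.32, 4.26 and 4.52 in NN-Veh and 4.14, 3.68 and 3.79 in 9-week NN livers. These made 4 members higher at an unadjusted p under 0.05 and 0 lower, against 8.69% and 7.13% of all probe sets. Col1a1 and Col3a1 had 0.064 (SE 0.15) and 0.20 (SE 0.17). The stellate cell markers Reln, Hgf and Des had lower means in NN-Veh than in 9-week NN livers (7.41 against 7.46, 6.96 against 7.06 and 4.45 against 4.70). The members' median was 0.064, against 0.0031 over all probe sets, and 23 of 37 were positive.

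Whether the difference between 22 and 9 weeks was larger in UN than in NN livers was tested by the interaction, UN minus NN. No member passed an adjusted p under 0.05 (background 0%). At an unadjusted p under 0.05, 3 were positive and 0 negative, against 1823 of all 25341 probe sets in either direction. In all, 32 of 37 values were positive with a median of 0.21, against 0.021 over all probe sets. The largest were Tgfbr2 with 0.56 (SE 0.21, limma adjusted p = 0.603) and Col1a1 with 0.50 (SE 0.21, limma adjusted p = 0.64), and the dim Lox, a lysyl oxidase, had 0.32 (SE 0.15). Lgals1 had 0.32 (SE 0.33), Lrat 0.24 (SE 0.28) and Col3a1 0.38 (SE 0.24). The value of Tgfbr2 was 0.37 without UN replicate 5 of 9 weeks, and without NN replicate 1 of 9 weeks Col1a1 had 0.31 and Col3a1 0.12. The 6 calls in UN and 2 in NN livers were thus not shown to differ.

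The other members that differed at an unadjusted p under 0.05 between UN-Veh and 9-week UN livers covered several roles. Among collagens these were Col14a1 with 0.36 (SE 0.13), the type I chain Col1a2 with 0.32 (SE 0.15), Col6a1, a chain of collagen VI, with 0.31 (SE 0.11) and Col15a1 with 0.25 (SE 0.11). Mmp2, a gelatinase made by stellate cells, had 0.33 (SE 0.14), and Sparc, a matricellular protein that binds collagen, had 0.35 (SE 0.14). Pdgfrb had 0.31 (SE 0.13) and Tagln 0.28 (SE 0.13). In NN-Veh livers the same genes had 0.21 for Col14a1, 0.15 for Col1a2, 0.067 for Col6a1, 0.079 for Col15a1, 0.064 for Mmp2, 0.057 for Sparc and -0.012 for Tagln, against 9-week NN livers.

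**Figure D2:**
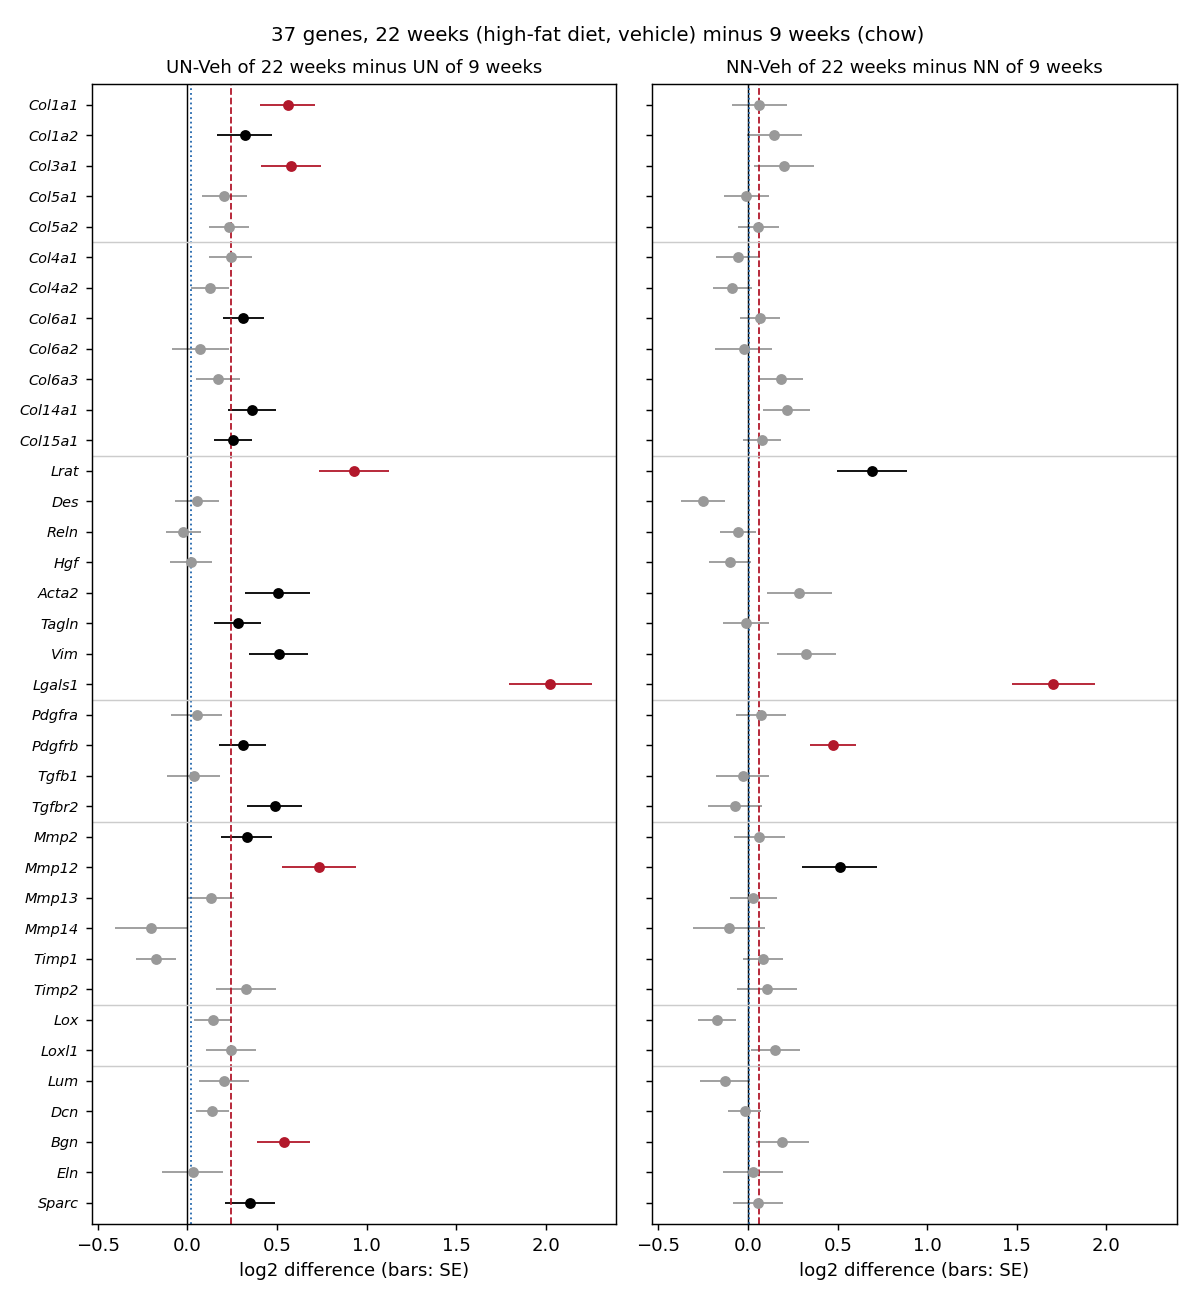
Log2 difference (horizontal axis, bars show the SE) of the 37 members (rows, grouped by role) between 22 weeks on HFD with vehicle and 9 weeks on chow, in UN on the left and NN on the right. Red points passed a limma adjusted p under 0.05, black points an unadjusted p under 0.05 only, the dashed line is the members' median (0.24 in UN and 0.064 in NN) and the dotted line that of all probe sets.

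Genes of the same pathways were read from 7 further lists. In UN-Veh against 9-week UN livers, 12 of their genes passed an adjusted p under 0.05, all higher (background 4.7% of all probe sets higher and 2.07% lower). These were 3 of 15 in collagen processing, 4 of 29 other glycoproteins and proteoglycans, 1 of 32 other collagen chains and 1 of 18 in TGF-beta and PDGF signalling. The rest were 1 of 11 other stellate cell markers, 2 of 11 contractile and activation genes and 0 of 26 other proteases and inhibitors. Tpm2, a tropomyosin of contractile cells, rose by 0.77 (SE 0.13, limma adjusted p = 0.000419) in UN-Veh livers. Cygb, a globin of stellate cells, rose by 0.75 (SE 0.13, limma adjusted p = 0.000735) there. In NN-Veh against 9-week NN livers (background 1.96% higher and 1.47% lower) Pcolce2, an enhancer of procollagen cleavage, rose by 0.80 (SE 0.10, limma adjusted p = 7.72e-05). Tpm2 rose there by 0.46 (SE 0.13, limma adjusted p = 0.0455), and none of the other genes of these lists passed in limma.

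Markers of other cells moved at the same ages. In UN-Veh livers Cd68 rose by 0.80, 1 of 8 Kupffer cell and macrophage markers, and Gpnmb and Trem2 by 0.51 and 0.41, 2 of 4 markers of lipid-associated macrophages, while the hepatocyte marker Cps1 fell by 0.39. The Kupffer cell and macrophage mean ranged from 7.08 to 7.46 in UN-Veh and from 6.92 to 6.98 in 9-week UN livers, and the lipid-associated macrophage mean from 4.86 to 5.31 and from 4.86 to 4.93 in the same groups. The sinusoidal endothelial marker Oit3 rose by 0.39, 1 of 6. In NN-Veh livers Adgre1 and Cd68 rose by 0.77 and 0.63, 2 of the 8 markers. Cd9, from the list of 4 lipid-associated macrophage markers, fell by 0.57 there. The mean of that list hardly moved, from 4.87 to 5.09 in NN-Veh livers and from 4.86 to 5.15 in 9-week NN livers. Macrophages also make Mmp12 and Lgals1, and the part of these cells in the members' values was not tested.

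Between 9 and 17 weeks, 0 members passed an adjusted p under 0.05 in UN (background 0.122% of probe sets) or in NN livers (background 0.0158%). Lgals1 had the largest difference in both, 1.89 (SE 0.38, limma adjusted p = 0.112) in UN and 1.83 (SE 0.38, limma adjusted p = 0.492) in NN, and no 17-week liver overlapped with a 9-week liver. It was the 1 member past the thresholds of the study's methods (linear fold 2, unadjusted p under 0.05) in both comparisons (background 1.31% in UN and 0.268% in NN), and also in UN-Veh (0.817%) and NN-Veh livers (0.58%) against 9 weeks. Mmp12 gave 4.32, 4.92, 4.92 and 4.72 in UN livers of 17 weeks and 4.11, 3.73 and 3.65 in those of 9 weeks, without overlap, and 0.89 (SE 0.18, limma adjusted p = 0.132). With UN replicate 14 left out, the differences in UN were 2.34 for Lgals1 and 0.89 for Mmp12, both past an adjusted p under 0.05 (limma adjusted p = 2.5e-05 and 0.0305), and Lgals1 in NN then had 0.000297. With both replicates 13 and 14 left out, 1 member was called in each comparison, Lgals1. Without UN replicate 11, Mmp12 alone was called in UN (1.02). The mean of the Kupffer cell and macrophage markers ranged from 5.70 to 8.72 in UN livers of 17 weeks and from 6.92 to 6.98 in those of 9 weeks, and its part in the Mmp12 values was not tested.

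In UN livers 5 members were higher and 1 lower at 17 weeks at an unadjusted p under 0.05 (background 2.9% and 5.53%). Besides Lgals1 and Mmp12, these were Col1a1 (0.52, SE 0.23), Col4a1 (0.40, SE 0.14), a basement membrane collagen, and Col15a1 (0.40, SE 0.13), a collagen of basement membrane zones, and the lower one was Pdgfra (-0.55, SE 0.21), a PDGF receptor of mesenchymal cells. Pdgfra gave 5.41, 5.35, 5.15 and 4.52 in UN livers of 17 weeks and 5.51, 5.82 and 5.64 in those of 9 weeks. Dcn had -0.72 (SE 0.43, limma adjusted p = 0.602). Without UN replicates 13 and 14 these differences were 0.25 for Col4a1, -0.28 for Pdgfra and 0.043 for Dcn. In NN livers 1 member, Lgals1, had an unadjusted p under 0.05, against 633 of all 25341 probe sets. Lrat had 0.46 (SE 0.38) and Mmp12 0.30 (SE 0.18) in NN livers, with 4.0, 4.14, 4.38 and 4.17 for Mmp12 at 17 weeks. The interaction between these ages and prenatal nutrition called 0 members in limma (background 0%). At an unadjusted p under 0.05 there were 2 members, against 622 of all 25341 probe sets. These were Mmp12 with 0.58 (SE 0.26) and Col4a1 with 0.46 (SE 0.20). The largest in size were Dcn with -0.64 (SE 0.61), Reln with -0.70 (SE 0.49) and Pdgfra with -0.62 (SE 0.29). Without UN replicates 13 and 14 the interaction was 0.12 for Dcn, -0.026 for Reln and -0.35 for Pdgfra.

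At 9 weeks, before HFD, no member separated UN from NN livers. None passed an adjusted p under 0.05 in limma (background 0%). None had an unadjusted p under 0.05, against 914 of all 25341 probe sets. The median difference was -0.056, against -0.0049 over all probe sets. The largest were Lgals1 at 0.22 (SE 0.12), Pdgfra at 0.22 (SE 0.12) and Tagln, the actin-binding protein transgelin, at -0.21 (SE 0.14). Pdgfra read 5.51, 5.82 and 5.64 in UN and 5.53, 5.32 and 5.48 in NN livers. Tagln read 4.56, 4.74 and 4.95 in UN and 5.13, 4.80 and 4.94 in NN livers. Both overlapped between the groups.

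At 17 weeks 0 members passed an adjusted p under 0.05 between UN and NN livers (background 0%), and at an unadjusted p under 0.05 there were 2 higher and 1 lower (background 1.29% and 1.71%). Mmp12 had 0.54 (SE 0.17) and Col15a1 0.37 (SE 0.13), with Col15a1 at 4.62, 4.93, 4.60 and 4.80 in UN and 4.33, 4.35, 4.50 and 4.30 in NN livers, without overlap. Pdgfrb had -0.53 (SE 0.21), with 6.17, 5.50, 5.73 and 5.22 in UN and 6.0, 6.18, 6.33 and 6.25 in NN livers. The largest differences in size belonged to genes that were low in UN replicate 14 and, less so, in replicate 13. Reln, which encodes reelin and marks stellate cells, gave 7.30, 7.45, 6.54 and 5.51 in UN and 7.42, 7.56, 7.34 and 7.68 in NN livers (-0.80, SE 0.39). Dcn, the proteoglycan decorin, gave 9.82, 9.85, 9.22 and 7.41 in UN and 9.75, 9.66, 9.67 and 9.83 in NN livers (-0.65, SE 0.49). Col14a1, a collagen on the surface of fibrils, gave 7.12, 7.36, 6.81 and 5.36 in UN and 7.31, 7.22, 7.28 and 7.05 in NN livers (-0.55, SE 0.39). In each the fourth UN value, replicate 14, was the lowest of the 8 livers and the third, replicate 13, lay below every NN liver.

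UN replicate 14 was the lowest of the 4 UN livers for 23 of the 37 members and the highest for 4, and its median deviation from the group mean was -0.41. With UN replicates 13 and 14 left out, Reln had -0.12, Pdgfrb -0.36, Dcn 0.11 and Col14a1 0.026 between UN and NN livers, and with replicate 14 alone left out Reln had -0.40. In replicate 14 the mean of 5 housekeeping genes was 6.38, against 8.0 to 8.45 in the 29 others. Whether RNA quality or cell composition of that liver set these values was not tested.

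**Figure D3:**
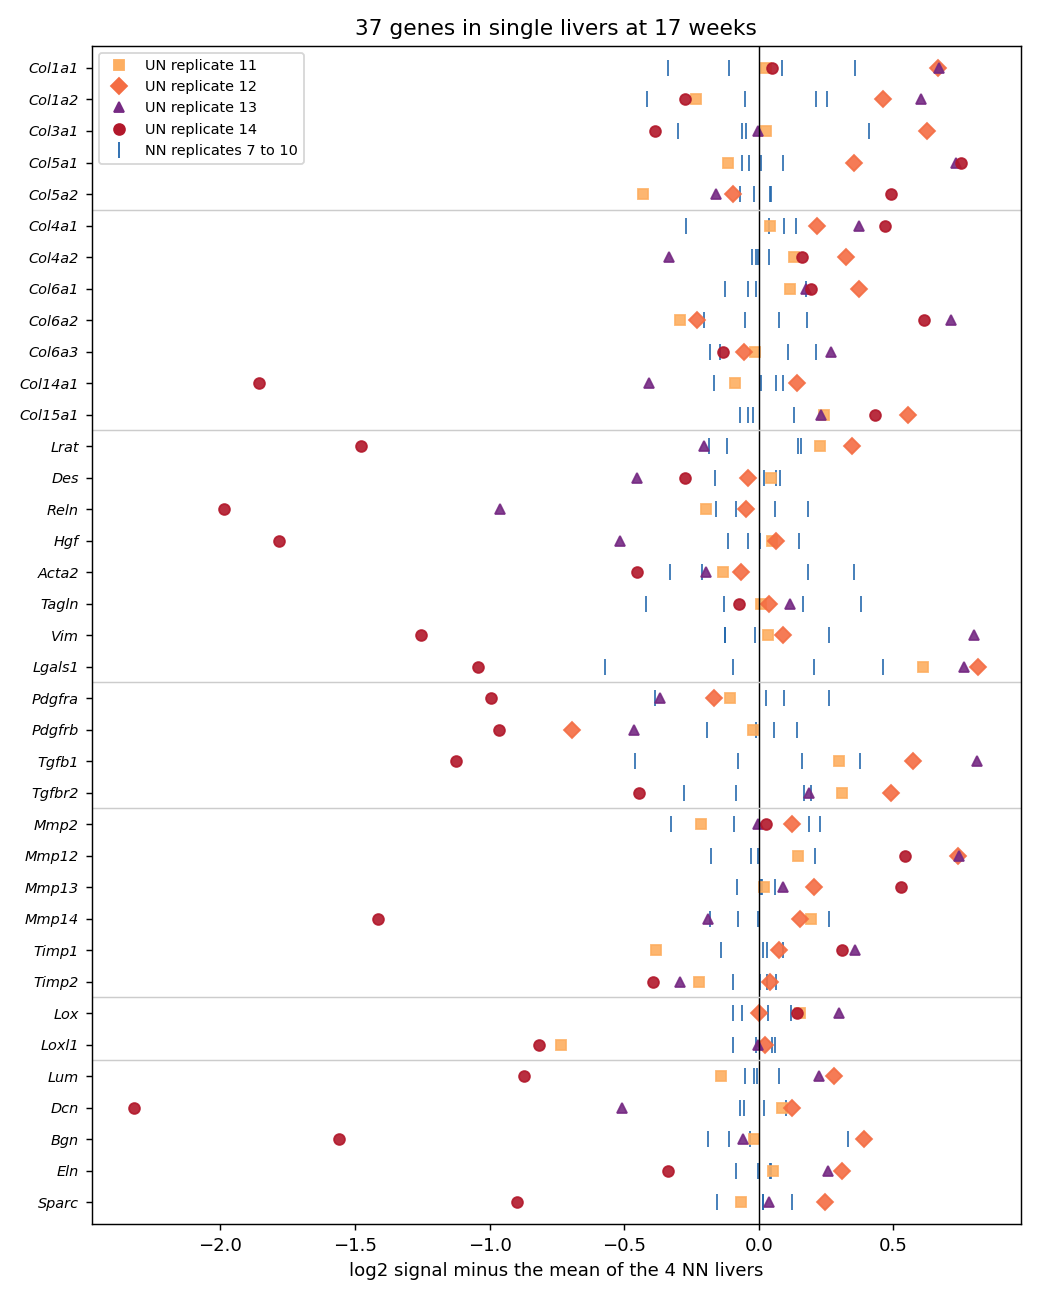
Log2 signal of each member (rows, grouped by role) in single livers of 17 weeks minus the mean of the 4 NN livers (horizontal axis). UN replicate 14 (red circles) lies to the left for Dcn, Reln, Hgf, Col14a1, Bgn, Mmp14 and Lrat, where the 4 NN livers (blue ticks) lie close to 0.

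At 22 weeks, after 13 weeks of HFD with vehicle, no member passed an adjusted p under 0.05 between UN-Veh and NN-Veh livers, whereas 0.418% of all probe sets did. At an unadjusted p under 0.05, 9 members were higher in UN-Veh and 0 lower (background 5.89% and 3.42%). They were Col1a1 (0.37, SE 0.12, limma adjusted p = 0.26), Tgfbr2 (0.36, SE 0.12), Col3a1 (0.32, SE 0.13), Col1a2 (0.32, SE 0.14), Lrat (0.31, SE 0.13), Col15a1 (0.27, SE 0.090), Lgals1 (0.54, SE 0.23, limma adjusted p = 0.449), Lox (0.24, SE 0.10) and the proteoglycan Lum (0.28, SE 0.13). Tgfbr2 gave 6.44, 6.59, 6.57 and 6.80 in UN-Veh and 6.09, 6.29, 6.26 and 6.32 in NN-Veh livers, without overlap. Col15a1 gave 4.66, 4.64, 4.50 and 4.57 in UN-Veh and 4.26, 4.26, 4.34 and 4.42 in NN-Veh livers, also without overlap. Bgn gave 9.81, 9.96, 9.85 and 10.08 in UN-Veh and 9.78, 9.64, 9.72 and 9.60 in NN-Veh livers and did not overlap (0.24, SE 0.14). Acta2 had 0.016 (SE 0.17) and Timp1 -0.16 (SE 0.098). The median over the members was 0.13, against 0.015 over all probe sets, with 30 of 37 positive. By role the fibrillar collagens had a median of 0.32, the other collagens 0.13, the stellate cell and cytoskeleton genes 0.085 and the proteases and inhibitors 0.16.

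Of the surrounding genes, Pdgfc, a PDGF ligand, rose in UN-Veh livers by 0.57 (SE 0.12, limma adjusted p = 0.0469), 1 of 18 signalling genes, and none of the other 6 lists had a gene past the adjusted threshold. Kupffer cell and macrophage markers had a median of -0.34, with 4 of 8 lower at an unadjusted p under 0.05, and their mean ranged from 7.08 to 7.46 in UN-Veh and from 7.38 to 7.95 in NN-Veh livers. Lipid-associated macrophage markers had a median of 0.19, with 2 of 4 higher. Their part in the members' values was not tested.

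TUDCA was tested within UN and within NN livers. In UN livers 1 member fell at an adjusted p under 0.05 and 0 rose (background 0.268% lower and 0.138% higher). Lgals1 fell to a mean of 6.57 ± 0.66 in UN-TU livers, against 7.67 ± 0.088 in UN-Veh livers (SD, 4 livers each), a difference of -1.11 (SE 0.23, limma adjusted p = 0.0355). It was also the 1 member at the study's thresholds (background 0.178%). The lowest UN-TU value, 5.62 in replicate 27, weighed most, and without it the difference was -0.79 (limma adjusted p = 0.0637). The call was also lost without UN-TU replicate 30 (0.0566) or any 1 of the UN-Veh livers (0.0654 to 0.107), and with all 30 arrays in 1 fit (0.600).

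At an unadjusted p under 0.05, 4 members were lower in UN-TU livers and 2 higher (background 5.64% and 4.96%). Besides Lgals1 the lower ones were Col1a1 (-0.43, SE 0.12, limma adjusted p = 0.149), with no overlap between the groups, Col3a1 (-0.42, SE 0.13, limma adjusted p = 0.201) and Tgfbr2 (-0.39, SE 0.12). Mmp14, a membrane-bound metalloproteinase, gave 8.01, 7.63, 7.48 and 7.49 in UN-TU and 6.85, 7.37, 7.01 and 7.19 in UN-Veh livers, without overlap (0.55, SE 0.17, limma adjusted p = 0.195). Reln gave 7.61, 7.53, 7.45 and 7.62 in UN-TU and 7.20, 7.36, 7.42 and 7.40 in UN-Veh livers, without overlap (0.21, SE 0.095). Lrat had -0.075 (SE 0.13), Acta2 0.087 (SE 0.17), Des 0.070 (SE 0.12) and Timp1 0.031 (SE 0.098). The members' median was -0.078, against -0.011 over all probe sets, and all 5 fibrillar collagens were negative with a median of -0.24. UN-Veh livers also stand in the comparisons with NN-Veh and with 9-week livers, so that these values are not independent of those.

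In NN livers 0 members passed an adjusted p under 0.05 with TUDCA (background 1.35%), and 7 were lower and 1 higher at an unadjusted p under 0.05 (background 11.5% and 4.19%). Lgals1 had -0.82 (SE 0.23, limma adjusted p = 0.0825), without overlap between NN-TU and NN-Veh livers. Col14a1, at 7.33, 6.96, 6.89 and 6.62 in NN-TU and 7.56, 7.42, 7.23 and 7.31 in NN-Veh livers, had -0.43 (SE 0.13, limma adjusted p = 0.0983). Col3a1 had -0.43 (SE 0.13, limma adjusted p = 0.112) and Col1a1 -0.40 (SE 0.12, limma adjusted p = 0.109). Col6a3, a chain of beaded-filament collagen VI, gave 5.09, 4.79, 4.70 and 4.75 in NN-TU and 5.02, 5.40, 5.17 and 5.09 in NN-Veh livers (-0.34, SE 0.11). Its partner chain Col6a2 gave 4.96, 4.83, 5.49 and 5.30 in NN-TU and 4.77, 4.54, 5.06 and 5.02 in NN-Veh livers and was the 1 higher member (0.30, SE 0.13). Pdgfrb had -0.27 (SE 0.12), Timp1 -0.23 (SE 0.098) and Acta2 -0.33 (SE 0.17). Pdgfrb had -0.14 without NN-TU replicate 22, and Col6a2 had 0.18 with NN-TU replicate 21 left out or 0.19 with NN-Veh replicate 16 left out. The median of the members was -0.10, against -0.044 over all probe sets. Without NN-TU replicate 19, whose signal was the highest of its group for 21 members, 4 members fell at an adjusted p under 0.05. These were Lgals1, Col14a1, Col1a1 and Col6a3. Without UN-TU replicate 27, which shares the spread of the fit, Lgals1 fell (limma adjusted p = 0.0102). The background of 1.35% is that of the fit with all arrays, and these counts are not set against that of their own fits.

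**Figure D4:**
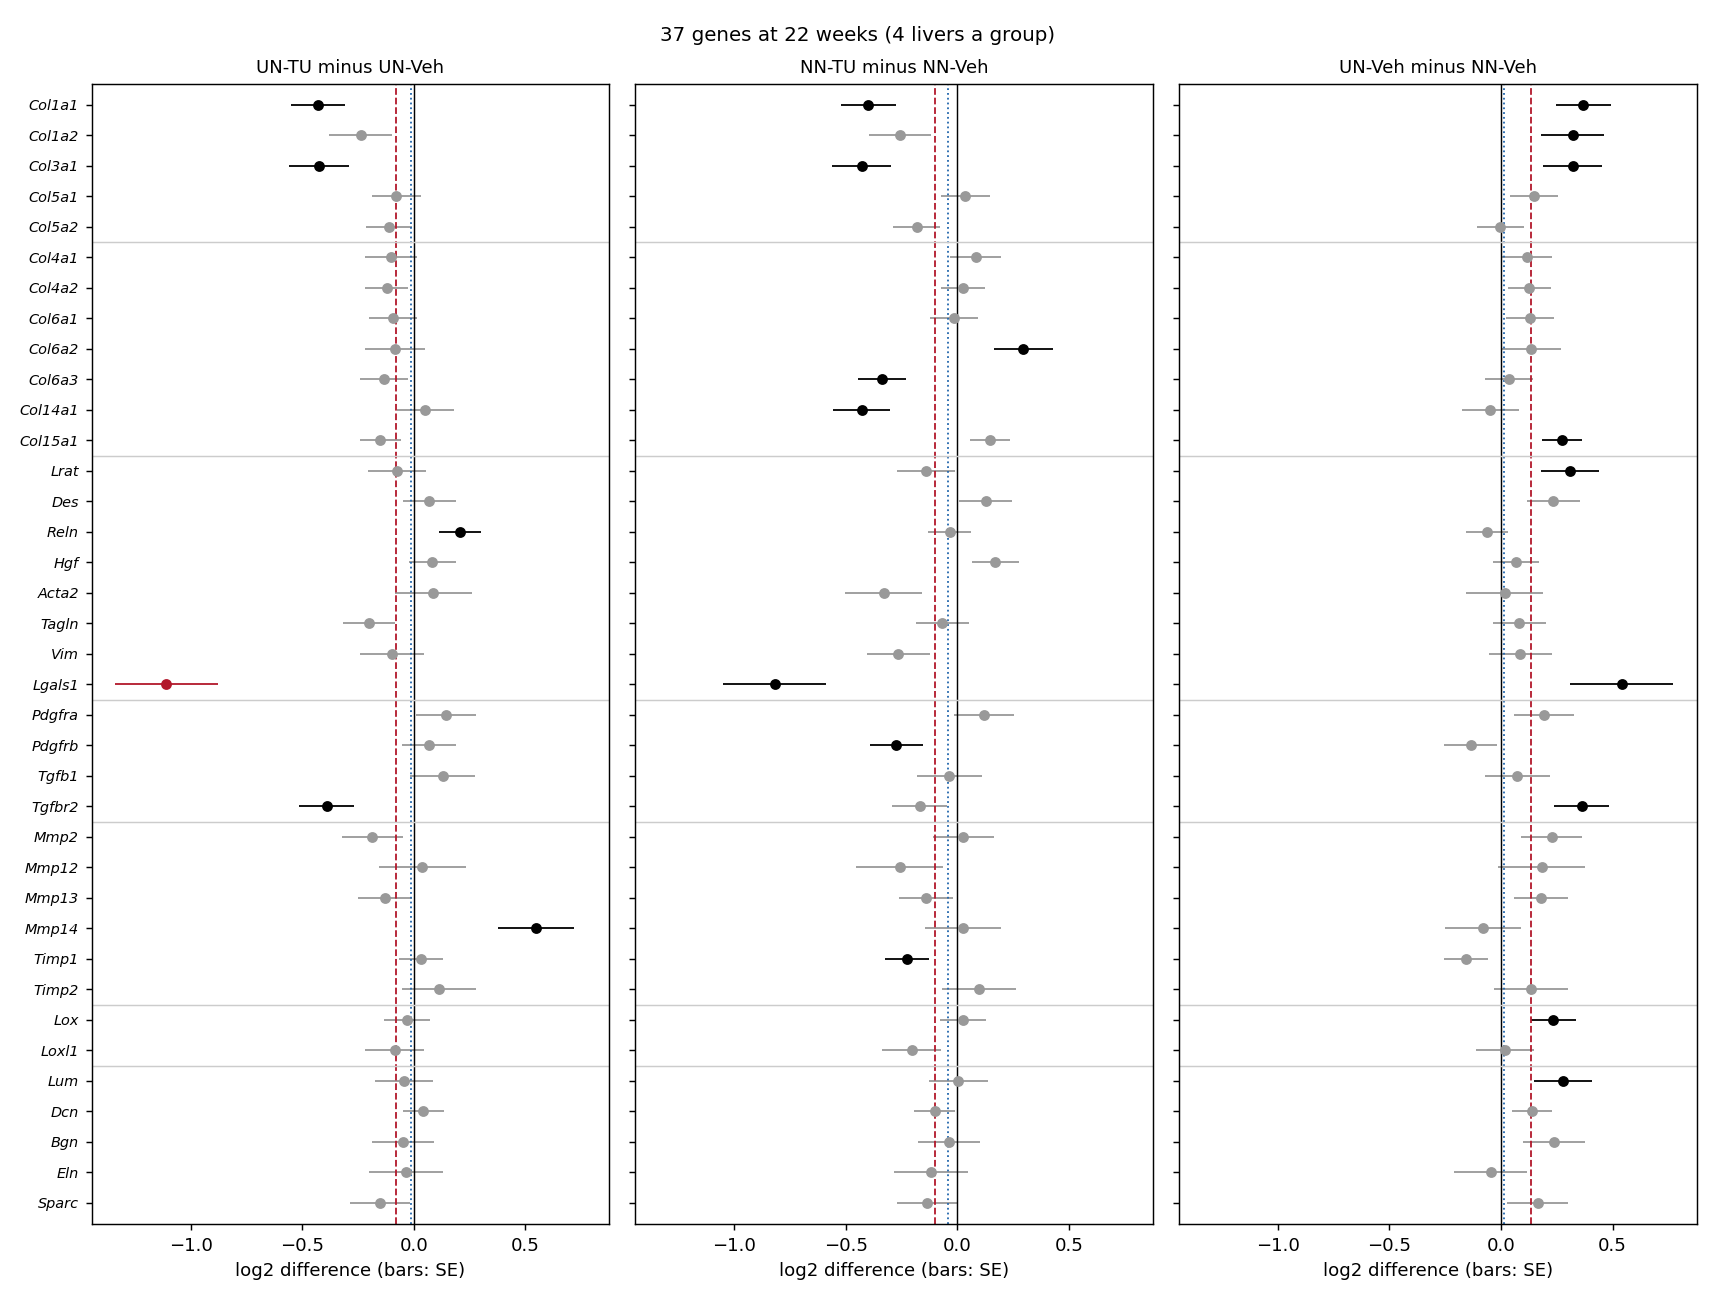
Log2 difference (horizontal axis, bars show the SE) of the 37 members (rows, grouped by role) at 22 weeks for UN-TU minus UN-Veh, NN-TU minus NN-Veh and UN-Veh minus NN-Veh livers, 4 livers a group. Lgals1 is the 1 red point (limma adjusted p under 0.05), black points had an unadjusted p under 0.05 only, and dashed and dotted lines mark the medians of the members (-0.078, -0.10 and 0.13) and of all probe sets.

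The surrounding genes gave 1 call with TUDCA in UN and 1 in NN livers. Of all probe sets, 0.268% were lower and 0.138% higher in UN, and 1.35% were called in NN livers. In UN-TU livers Tpm2, a tropomyosin of contractile cells, fell by 0.72 (0.00879 as limma adjusted p), 1 of 11 contractile and activation genes. In NN-TU livers Pcolce2 fell by 0.41 (0.0391 as limma adjusted p), 1 of 15 collagen processing genes. Of the 8 Kupffer cell and macrophage markers Adgre1 fell by 0.70 in NN-TU livers, 5 were lower at an unadjusted p under 0.05, and the mean ranged from 6.85 to 7.39 in NN-TU and from 7.38 to 7.95 in NN-Veh livers. In UN-TU livers 2 of the 8 were higher at an unadjusted p under 0.05 and the mean ranged from 7.30 to 7.62, against 7.08 to 7.46 in UN-Veh livers. Lipid-associated macrophage markers had a median of -0.27 in UN-TU and -0.068 in NN-TU livers. The part of these cells in the members' values was not tested.

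Whether TUDCA acted differently in UN and NN livers was tested by the interaction, UN minus NN. No member passed an adjusted p under 0.05 in limma (background 0%). At an unadjusted p under 0.05 there were 3 of the 37 members, against 3009 of all 25341 probe sets. These were Mmp14 (0.52, SE 0.24, limma adjusted p = 0.394), Col14a1 (0.48, SE 0.18, limma adjusted p = 0.294) and Col15a1 (-0.30, SE 0.13). The interaction was -0.29 (SE 0.33) for Lgals1, -0.029 (SE 0.17) for Col1a1, 0.0042 (SE 0.19) for Col3a1 and 0.42 (SE 0.24) for Acta2, which shows neither a different nor an equal response of these genes. Without NN-TU replicate 22 the interaction of Mmp14 was 0.33.

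Among TUDCA-treated livers, 0 members passed an adjusted p under 0.05 between UN-TU and NN-TU (background 0.474%), and 10 were higher and 0 lower at an unadjusted p under 0.05 (background 13.3% and 3.78%). The largest were Mmp12 (0.48, SE 0.19, limma adjusted p = 0.211), at 4.08, 4.18, 4.96 and 5.19 in UN-TU and 3.83, 4.29, 4.49 and 3.88 in NN-TU livers, Mmp14 (0.44, SE 0.17) and Acta2 (0.43, SE 0.17). Lrat had 0.37 (SE 0.13), Col14a1 0.43 (SE 0.13) and Dcn 0.29 (SE 0.090), with Dcn at 9.99, 9.96, 9.86 and 10.09 in UN-TU and 9.86, 9.77, 9.64 and 9.48 in NN-TU livers, where the lowest UN-TU liver lay just above the highest NN-TU liver. Mmp12 had 0.28 without UN-TU replicate 30, and Mmp14 0.25 without NN-TU replicate 22. The median over the members was 0.18, against 0.056 over all probe sets, and 31 of 37 were positive. Some markers of other cells were also higher at an unadjusted p under 0.05 in this comparison, and 0 of those given next passed the adjusted threshold. The mean of 6 sinusoidal endothelial markers ranged from 7.94 to 8.02 in UN-TU and from 7.6 to 7.92 in NN-TU livers, and 2 of the 6 were higher. Of the 8 Kupffer cell and macrophage markers 4 were higher, with a median of 0.35 and a mean between 7.30 and 7.62 in UN-TU and between 6.85 and 7.39 in NN-TU livers. Of 5 housekeeping genes 3 were higher, with a median of 0.25. Their part in the members' values was not tested.

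The methods' ANOVA, adjusted in the same way, called 0 members in the comparisons between groups apart from Lgals1 in UN-Veh against 9-week UN livers.

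Of the remaining members, 10 had no unadjusted p under 0.05 in any comparison between groups. Their differences over these comparisons ranged from -0.095 to 0.43 for Col5a1 and -0.18 to 0.23 for Col5a2, chains of the collagen that nucleates fibrils. Col4a2, the basement membrane partner of Col4a1, ranged from -0.19 to 0.13. Hgf, the hepatocyte growth factor that stellate cells release, ranged from -0.55 to 0.17 and Tgfb1, the profibrotic ligand, from -0.095 to 0.24. The collagenase Mmp13, which was dim, ranged from -0.14 to 0.21 and the inhibitor Timp2 from -0.22 to 0.33. Loxl1, a cross-linking enzyme of elastic fibres, ranged from -0.38 to 0.24 and Eln, elastin itself, from -0.12 to 0.072. Des, given above, ranged from -0.25 to 0.23. The -0.55 of Hgf, -0.38 of Loxl1 and 0.43 of Col5a1 were for UN against NN livers at 17 weeks, with UN replicates 13 and 14 included. UN livers of that age ranged from 5.30 to 7.14 for Hgf and from 3.64 to 4.48 for Loxl1. Groups could still be apart, as Col5a2 was at 4.79, 4.72, 4.80 and 4.80 in UN-TU and 4.84, 4.94, 4.86 and 4.93 in UN-Veh livers (-0.11, SE 0.10, limma adjusted p = 0.775).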

How the data were processed

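Liver RNA of 30 mice was hybridised to Affymetrix MoGene 2.1 ST arrays, 1 array per liver. The authors processed the arrays with Affymetrix Expression Console (its version and the summarisation method are not given in the sources used here) and deposited normalised log2 signals for 41345 probe sets. Such summarised values carry no read depth, and the number of arrays limits their precision. Of the probe sets, 23521 carried 1 gene symbol, 1820 several and 16004 none in the platform annotation, and the 25341 named ones were tested. The 39 genes and all lists were chosen with earlier results of these data known.

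Under R 4.3.3, limma 3.58.1 (lmFit, then eBayes) estimated 1 mean per group from the arrays of the cohorts compared, with Benjamini-Hochberg adjustment over the 25341 probe sets and a threshold of 0.05. The fit was tested on simulated data first. Tables and figures used Python 3.11.15 and matplotlib 3.10.9. Col1a1, Col1a2, Col3a1, Acta2, Lrat, Des and Timp1 were named throughout, then up to 6 members past the threshold by size, or 3 where none passed, and up to 2 further pathway genes past it. Members with an unadjusted p under 0.05 or groups that did not overlap were named after their values were seen. Alternatives were trend and robust moderation, all 30 arrays in 1 fit, only the groups compared, the methods' ANOVA, array weights, repeated quantile normalisation, a common array median, brighter or all probe sets, the mean of a gene's probe sets and each array left out. Leaving out UN replicates 13 and 14 of 17 weeks was chosen after seeing the data. The array strips and scans were not examined. Since litters are not given, p-values measure the spread between the mice sampled.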

Additional observations from a re-analysis of the deposited data

Results flagged for a closer look

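Among 168 sets of 4 livers (28 members in the 6 groups of 4), 4 held a liver far from the rest. The rule used flags 1 in 20 independent sets by chance. These sets share livers and most of the 28 members were named from their values, so their share cannot be judged against that rate. Lgals1, the galectin of activated stellate cells and other cells, read 6.21 in UN replicate 14 of 17 weeks, against 7.87 to 8.07 in the other UN livers of that age. Col6a3, a collagen VI chain, read 5.48 in UN-Veh replicate 26, against 5.08 to 5.14 in the other UN-Veh livers. In NN-TU replicate 22 the proteoglycan gene Lum read 4.28, against 4.45 to 4.47 in the other NN-TU livers. In the same liver Tgfbr2, the type II TGF-beta receptor, read 5.96, against 6.09 to 6.11. No interaction with prenatal nutrition passed an adjusted p under 0.05 for any member in limma.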

How the results depend on the processing

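No paired analysis was possible because no replicate number is shared between groups. The counts of members called in UN against NN livers at 9, 17 and 22 weeks and in the 3 interactions stayed at 0 under every alternative run. Counts under the alternatives are not set against the share of all probe sets called in the same fit, which may also have changed. For UN-Veh against 9-week UN livers, 1 member was called with all 30 arrays in 1 fit, 1 by the methods' ANOVA and 2 over all probe sets of the table, and 2 to 8 with 1 array left out. For NN-Veh against 9-week NN livers the counts were 1, 0 and 1 under the same 3 settings, and 1 to 3 with 1 array left out. For UN-TU against UN-Veh livers 0 members were called under these 3, with only the groups compared and with trend and robust moderation, and 0 to 1 with 1 array left out. For NN-TU against NN-Veh livers 1 was called with only the groups compared, and 0 to 4 with 1 array left out. UN-TU against NN-TU livers gave 0 to 1 with 1 array left out, the 1 being Col14a1 without NN-TU replicate 19. For NN livers of 17 against 9 weeks 1 was called with all 30 arrays, only the groups compared, array weights, repeated quantile normalisation or UN replicates 13 and 14 left out, and 0 to 1 with 1 array left out. For UN livers of 17 against 9 weeks 2 were called with all 30 arrays, array weights or repeated quantile normalisation, 1 without UN replicates 13 and 14, and 0 to 2 with 1 array left out.

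Among the named genes, signs turned for Dcn and Col14a1. With array weights Dcn had 0.031 between UN and NN livers and 0.049 in the interaction with 9 weeks. Without UN replicates 13 and 14 Dcn had 0.11 between UN and NN livers, 0.043 between UN livers of 17 and 9 weeks and 0.12 in the interaction, and Col14a1 had 0.026 between UN and NN livers. The members' median in that interaction was 0.14 with array weights, 0.20 with repeated quantile normalisation and 0.16 without the pair of arrays. The members' median, close to 0 with all arrays, changed sign in 4 comparisons under settings other than leaving out 1 array. It lay between -0.048 and 0.10 for UN against NN at 17 weeks (0.017 as reported), -0.018 and 0.20 in the interaction of 17 against 9 weeks (0.016), -0.027 and 0.050 for NN of 17 against 9 weeks (0.017), and -0.054 and 0.0099 in the interaction with TUDCA (0.0099). With 1 array left out these 4 medians and that of UN of 17 against 9 weeks took both signs. Leaving out 1 array moved 21 differences of named genes by over 1.5 times, of which 0 had passed the adjusted threshold. Over the brighter probe sets alone, the median of all probe sets lay at -0.29 for UN against NN at 17 weeks, -0.24 for UN of 17 against 9 weeks and -0.27 for their interaction. What caused the changes between settings was not tested. The dim signals of Mmp13, Lox and Timp1 limit what can be read for these genes. The same holds for Mmp12 at 9 weeks, with means of 3.83 in UN and 3.87 in NN livers.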
